A study of Mus musculus with 16 samples.

Results

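The epidermal barrier ceramide genes are a set of 10 genes named by symbol, Elovl4, Cers3, Cyp4f39, Abca12, Pnpla1, Ugcg, Sptlc2, Sptlc3, Degs2 and Fa2h, out of 55359 genes in the count tables. All 10 were found by their Ensembl identifiers in the mouse GENCODE annotation of GRCm39, and all 10 passed the filter on low counts in every fit. The data are bulk mRNA-seq of whole dorsal skin from wild-type C57Bl/6 mice (given as C57Bl/6N in the study's text), 8 weeks old, with the hair follicles in telogen, the resting stage of the hair cycle. In 4 males and 4 females the skin had received 3 UVB irradiations and was collected 6 h after the last one, on day 5, and 4 males and 4 females without UVB were the controls, so that the 16 mice share genotype, age and the labelled hair stage. The summed level of 6 hair keratins, which mark the growing hair shaft, was 7.15 and 8.20 CPM in no-UVB male replicates 3 and 4 and 0.0721 to 0.652 CPM in the other 14 mice, and the counts of members are given with and without those 2 mice. The libraries held whole skin, so that a lower count of cells of a type and less RNA per cell cannot be told apart. Levels are given as CPM, the reads of a gene scaled to a common library total by TMM, and a gene is said to rise or fall where edgeR's quasi-likelihood test gave a Benjamini-Hochberg adjusted p under 0.1 over all genes tested.

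The outer layer of the epidermis, the stratum corneum, holds water because the spaces between its dead cells are filled with ceramides, cholesterol and free fatty acids. Ceramide is a sphingoid base joined to a fatty acid, and the epidermis makes an unusual kind, the acylceramide, whose very long fatty acid is hydroxylated at its far end and esterified there with linoleic acid. Suprabasal keratinocytes convert these lipids to glucosylceramides, pack them into lamellar granules and secrete them at the top of the granular layer, where enzymes release the ceramide again. Loss of several of these genes causes ichthyosis, a scaling disorder of the skin, and mice that lack certain of them lose water through the skin and die soon after birth.

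In males the level of all 10 genes rose after UVB, also without no-UVB male replicates 3 and 4, and in females 8 of 10 rose and none fell. The largest response belonged to Degs2, 17.0-fold in males and 3.43-fold in females, followed in males by Cers3 at 3.78-fold and Pnpla1 at 3.23-fold. The smallest belonged to the serine palmitoyltransferase subunits, Sptlc2 at 1.41-fold and Sptlc3 at 1.43-fold in males. The 2 that did not pass the test in females were those same subunits. Over all genes tested, 29.0% rose in males and 12.8% rose in females. The members' median log2 fold change was 1.12 in males, against -0.02 over all 16535 genes tested, and 0.75 in females, against 0.002 over 16883. Past 1 on the log2 scale were 6 members in males, Degs2, Cers3, Pnpla1, Fa2h, Elovl4 and Cyp4f39, and 3 in females, Degs2, Pnpla1 and Cers3, as were 4.08% and 1.63% of all genes tested. Each member's log2 fold change lay at or above the 86.7th percentile of all genes in males, and between the 63.6th and the 99.4th in females. The irradiated mice lay wholly above the controls for all 10 members in males and for 7 in females, with overlap for Sptlc2, Sptlc3 and Fa2h, and so did 22.9% of all genes tested in males and 11.1% in females.

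**Figure D1:**
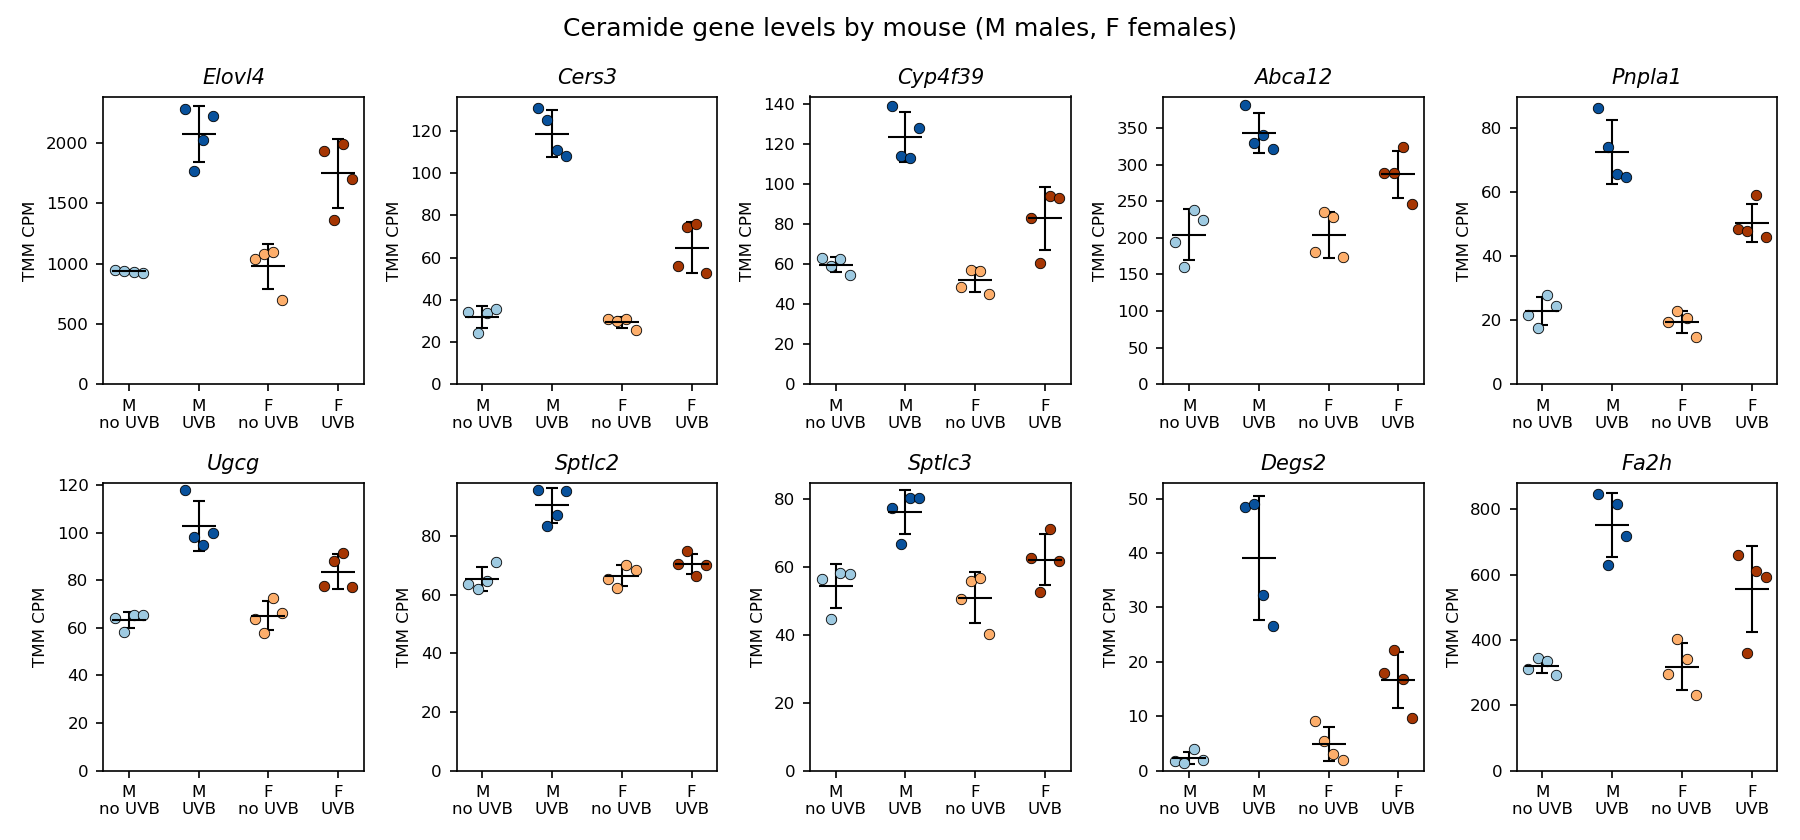
TMM CPM (vertical axis, linear from 0) of each ceramide gene in each of the 16 mice, with the mean and SD of the 4 mice of a group as a bar and whiskers. In males every irradiated mouse lies above every control for each of the 10 genes, as for 22.9% of all genes tested, and in females Sptlc2, Sptlc3 and Fa2h overlap, where 11.1% of all genes tested lie wholly above.

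The members lie at separate loci on 8 autosomes. In GRCm39 coordinates of GENCODE, Abca12 spans chr1:71281435-71454069, Sptlc3 chr2:139335833-139479594, Ugcg chr4:59189035-59222845 and Cers3 chr7:66393252-66473439. Fa2h spans chr8:112071767-112120465, Elovl4 chr9:83660744-83688430, Sptlc2 chr12:87351832-87435267 and Degs2 chr12:108644970-108668586. Pnpla1 spans chr17:29077385-29109283 and Cyp4f39 chr17:32671694-32712396. All are protein coding, and the reads counted are those over exons, UTRs included. Exons of Degs2 share 281 bases (10.8% of its exon length) with Evl on the opposite strand, and Pnpla1 shares 13.3% with the antisense transcript Pnpla1os. The kit marks strand, and reads of the opposite strand over Degs2 came to 18.2% of those counted there, against 0.395% to 1.17% at the other 9 members.

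Promoter windows of 300 bases, from 250 before to 50 after the annotated start, were taken from RefSeq (GRCm38.p6) and matched 9 of the 10 members, all but Fa2h. On both strands, the AP-1 motif TGANTCA, the Grainyhead motif AACNGGTT and the TATA box TATAAA were in none of the 9 windows, and 7.81%, 2.08% and 13.6% of all 32817 windows held them. The GC box GGGCGG was in 4 of 9, Elovl4, Ugcg, Sptlc2 and Degs2, against 35.6% of all windows. The E-box CACGTG was in the window of Elovl4 alone, against 7.15% of all windows. The windows of Elovl4, Ugcg, Sptlc2 and Degs2 had a GC content of 71%, 81.3%, 59.3% and 67.7%, and the other 5 had 37.3% to 58%, with a median over all windows of 52.7%. The 4 windows below are those of the 3 genes whose UVB response differed between the sexes, Degs2, Cers3 and Sptlc2, and of Elovl4, the most abundant member. They lie at chr12:108702257-108702556 (minus strand), chr7:66743254-66743553 (plus), chr12:87388306-87388605 (minus) and chr9:83806256-83806555 (minus) and read 5′ to 3′ in the direction of the gene, with matches to a motif in capitals.
Degs2: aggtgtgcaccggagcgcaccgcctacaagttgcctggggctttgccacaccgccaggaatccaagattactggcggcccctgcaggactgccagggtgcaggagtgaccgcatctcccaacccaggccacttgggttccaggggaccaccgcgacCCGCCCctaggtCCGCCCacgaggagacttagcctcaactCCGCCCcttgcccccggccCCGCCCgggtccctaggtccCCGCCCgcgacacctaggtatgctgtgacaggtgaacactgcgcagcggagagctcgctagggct
Cers3: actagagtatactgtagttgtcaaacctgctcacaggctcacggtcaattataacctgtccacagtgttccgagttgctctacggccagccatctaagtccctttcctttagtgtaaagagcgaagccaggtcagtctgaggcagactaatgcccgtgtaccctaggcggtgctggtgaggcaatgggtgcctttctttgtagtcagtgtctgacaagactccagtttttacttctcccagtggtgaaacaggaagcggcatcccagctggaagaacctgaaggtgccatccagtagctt
Sptlc2: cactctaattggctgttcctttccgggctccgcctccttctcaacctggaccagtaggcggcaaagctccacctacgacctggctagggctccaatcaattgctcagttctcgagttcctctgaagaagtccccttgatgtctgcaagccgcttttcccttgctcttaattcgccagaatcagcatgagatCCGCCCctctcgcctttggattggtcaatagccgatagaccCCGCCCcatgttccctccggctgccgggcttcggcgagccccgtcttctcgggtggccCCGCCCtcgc
Elovl4: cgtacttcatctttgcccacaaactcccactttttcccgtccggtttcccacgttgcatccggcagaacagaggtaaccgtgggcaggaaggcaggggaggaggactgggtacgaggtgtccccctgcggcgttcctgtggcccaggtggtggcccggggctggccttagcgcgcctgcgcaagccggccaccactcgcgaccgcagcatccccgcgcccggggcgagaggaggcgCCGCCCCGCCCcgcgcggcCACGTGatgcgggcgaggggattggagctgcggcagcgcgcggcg
The window of Degs2 holds 5 GC boxes and that of Sptlc2 holds 3, all read on the opposite strand as CCGCCC, while that of Cers3 holds no match. In Elovl4 a pair of GC boxes that share 1 base precedes the E-box. How GC boxes relate to the size of a member's response was not tested. A match is a run of letters and was not tested as a binding site.

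Without UVB the members differed in level by over 2 orders of magnitude. Per kb of exon, Elovl4 stood first in no-UVB males at 299 ± 4.04 CPM per kb (SD, n = 4), followed by Fa2h at 106 ± 7.69 CPM per kb. Cyp4f39 (20.2), Sptlc3 (18.1), Abca12 (13.8), Ugcg (11.0) and Cers3 (9.81 CPM per kb) came next, and each overlapped its neighbour in this order. Sptlc2 (5.56) and Pnpla1 (4.72 CPM per kb) followed, again with overlap, and Degs2 was the lowest at 0.888 ± 0.452 CPM per kb. No-UVB females had the same order, with Degs2 at 1.88 ± 1.23 CPM per kb and overlapping Pnpla1 at 4.01 ± 0.704 CPM per kb.

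After UVB the genes at the top kept their places and those lower down moved. In irradiated males Elovl4 stood at 663 ± 73.8 CPM per kb and Fa2h at 250 ± 32.3 CPM per kb. Cers3 moved past Sptlc3, Abca12 and Ugcg to 36.5 ± 3.38 CPM per kb, where it overlapped Cyp4f39 at 41.7 ± 4.09 CPM per kb. Degs2 and Pnpla1 both reached 15.0 CPM per kb, and Sptlc2 became the lowest at 7.70 ± 0.507 CPM per kb. In irradiated females Cers3 passed Abca12 and Ugcg at 19.9 ± 3.69 CPM per kb, though overlapping Abca12, and Degs2 (6.40 ± 1.99 CPM per kb) overlapped Sptlc2 (5.99 ± 0.292 CPM per kb) at the bottom. The summed level of the 10 genes was 1760 ± 47.1 CPM in no-UVB males, 3793 ± 355 CPM in irradiated males, 1788 ± 295 CPM in no-UVB females and 3020 ± 436 CPM in irradiated females. Elovl4 made up 51.1% to 58.6% of that sum in every mouse.

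**Figure D2:**
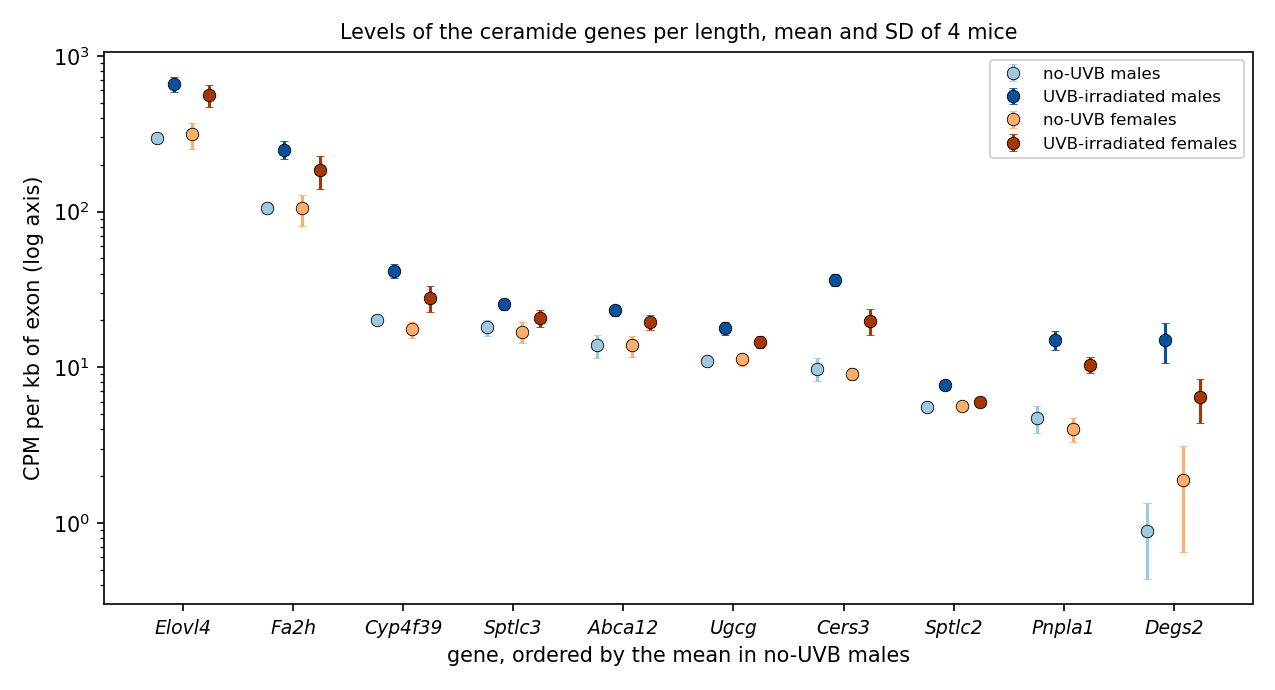
Mean and SD (whiskers, n = 4 mice) of CPM per kb of exon on a log axis for the 10 genes in the 4 groups, ordered by the level in no-UVB males. Elovl4 and Fa2h stand above the rest in every group, and Degs2 rises from 0.888 to 15.0 CPM per kb in males.

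The first step, the joining of serine and palmitoyl-CoA, is made by serine palmitoyltransferase, in which Sptlc2 and Sptlc3 are alternative catalytic subunits that pair with Sptlc1. Sptlc2 stood at 63.5, 61.9, 64.7 and 71.0 CPM in the no-UVB males and at 95.6, 83.5, 87.3 and 95.2 CPM in the irradiated males. The female values were 65.2, 62.2, 70.1 and 68.3 CPM without UVB and 70.4, 74.7, 66.3 and 70.1 CPM with it. The irradiated males thus stood clear of all 12 other mice, whose values lay within 61.9 to 74.7 CPM. On the log2 scale the response of Sptlc2 was 0.49 ± 0.06 (SE) in males (edgeR adjusted p = 7.92e-05) and 0.09 ± 0.07 in females (edgeR adjusted p = 0.404, 95% interval -0.06 to 0.24). The response was larger in males by 0.39 on the log2 scale (95% interval 0.20 to 0.58, edgeR interaction adjusted p = 0.0343).

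Sptlc3, which is found in fewer tissues and favours other acyl chain lengths, stood at 56.2, 44.6, 58.2 and 57.7 CPM in no-UVB males and at 77.3, 66.6, 80.2 and 80.2 CPM after UVB. Females had 50.5, 55.7, 56.7 and 40.3 CPM without UVB and 62.6, 52.6, 71.0 and 61.6 CPM with it. Only irradiated female replicate 2, at 52.6 CPM, fell within the female controls. The response of Sptlc3 was a log2 fold change of 0.51 ± 0.09 in males (edgeR adjusted p = 0.000756) and 0.29 ± 0.12 in females (edgeR adjusted p = 0.126). Without irradiated female replicate 2 the female value was 0.36 and passed the test (edgeR adjusted p = 0.0675), and it also passed in 1 fit over all 16 mice (0.28, edgeR adjusted p = 0.0886). Its responses differed between the sexes by 0.21, which did not pass (95% interval -0.14 to 0.55, edgeR interaction adjusted p = 0.493).

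Degs2 encodes a dihydroceramide desaturase that is also a hydroxylase and so makes phytoceramides. It was scarce in no-UVB males, at 1.82, 1.38, 4.03 and 2.01 CPM, and reached 48.5, 49.0, 32.3 and 26.6 CPM in irradiated males. In no-UVB females it varied more, from 9.18 and 5.39 to 2.98 and 2.02 CPM, and irradiated females had 18.0, 22.1, 16.8 and 9.62 CPM. Irradiated female replicate 4 at 9.62 CPM lay just above the highest control at 9.18 CPM, and no irradiated female reached the lowest irradiated male at 26.6 CPM. The counts behind these values ran from 30 to 1557 reads. On the log2 scale Degs2 rose by 4.08 ± 0.35 in males (edgeR adjusted p = 3.73e-05) and 1.78 ± 0.41 in females (edgeR adjusted p = 0.0187). The response in males was the larger by 2.30 (95% interval 1.01 to 3.58, edgeR interaction adjusted p = 0.0545). That difference did not pass with all genes of 1 count or more in the test (edgeR adjusted p = 0.143), nor without irradiated male replicate 1 (0.12), no-UVB male replicate 1 (0.106) or no-UVB male replicate 2 (0.125), with values of 2.11 to 2.29. In females its response did not pass under that filter either (edgeR adjusted p = 0.114).

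The fatty acids are lengthened beyond the usual range by Elovl4, the elongase for ultra-long chains. Elovl4 was even in the no-UVB males, at 947, 941, 934 and 918 CPM, and stood at 2280, 1770, 2020 and 2223 CPM in irradiated males. The female levels were 1039, 1077, 1097 and 699 CPM without UVB and 1932, 1362, 1993 and 1702 CPM with it. The female control at 699 CPM stood apart from the other 3, and the groups of neither sex overlapped. On the log2 scale Elovl4 rose by 1.17 ± 0.09 in males (edgeR adjusted p = 3.25e-06) and 0.85 ± 0.17 in females (edgeR adjusted p = 0.00979), with a difference of 0.31 (95% interval -0.11 to 0.73, edgeR interaction adjusted p = 0.391).

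Cyp4f39, a cytochrome P450 of the family whose human epidermal member adds the hydroxyl group at the far end of the chain, stood at 62.9, 59.0, 62.7 and 54.5 CPM in no-UVB males and at 139, 114, 113 and 128 CPM after UVB. Female mice had 48.7, 57.1, 56.7 and 45.1 CPM without UVB and 83.2, 60.6, 94.2 and 93.1 CPM with it. Irradiated female replicate 2 again lay lowest in its group, at 60.6 CPM, still above the controls. On the log2 scale Cyp4f39 rose by 1.07 ± 0.08 in males (edgeR adjusted p = 1.98e-06) and 0.68 ± 0.14 in females (edgeR adjusted p = 0.00987). The responses differed by 0.38 (95% interval 0.02 to 0.73), which did not pass the adjusted test (edgeR interaction adjusted p = 0.217).

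Fa2h, which hydroxylates fatty acids at the second carbon and is active in both epidermis and sebaceous glands, stood at 312, 344, 336 and 293 CPM in no-UVB males and at 846, 631, 816 and 720 CPM after UVB. The female values were 297, 402, 342 and 232 CPM without UVB and 659, 361, 610 and 594 CPM with it. Irradiated female replicate 2 at 361 CPM lay below the highest female control at 402 CPM, and the other 3 lay above all controls. On the log2 scale Fa2h rose by 1.25 ± 0.10 in males (edgeR adjusted p = 3.45e-06) and 0.81 ± 0.21 in females (edgeR adjusted p = 0.0266). With all genes of 1 count or more in the test, the female call was lost (edgeR adjusted p = 0.103). The responses differed by 0.43 (95% interval -0.10 to 0.95, edgeR interaction adjusted p = 0.335).

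The acyl chain is joined to the base by ceramide synthases, and Cers3 is the one that takes the ultra-long chains of the epidermis. Cers3 stood at 34.2, 24.2, 33.9 and 35.5 CPM in no-UVB males and at 131, 125, 111 and 108 CPM after UVB. Females had 31.1, 30.2, 30.9 and 25.5 CPM without UVB and 56.2, 74.3, 75.8 and 52.7 CPM with it. The controls of both sexes overlapped, the irradiated females lay above them, and the irradiated males lay above the irradiated females with no overlap. Its fitted log2 response was 1.92 ± 0.12 in males (edgeR adjusted p = 1.56e-06) and 1.15 ± 0.13 in females (edgeR adjusted p = 0.000461). The difference of 0.76 (95% interval 0.36 to 1.15) passed the test (edgeR interaction adjusted p = 0.0413), and it passed in each of the 16 fits that left out 1 mouse, with values of 0.64 to 0.86.

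Pnpla1 is the transacylase that attaches linoleic acid and so completes the acylceramide. It stood at 21.5, 17.4, 27.9 and 24.5 CPM in no-UVB males and at 86.1, 73.8, 65.5 and 64.5 CPM after UVB. In females it was 19.4, 22.8, 20.7 and 14.8 CPM without UVB and 48.4, 47.8, 58.9 and 45.8 CPM with it. The lowest irradiated female, at 45.8 CPM, lay well above the highest control of either sex, at 27.9 CPM. On the log2 scale it rose by 1.69 ± 0.14 in males (edgeR adjusted p = 1.34e-05) and 1.38 ± 0.13 in females (edgeR adjusted p = 0.000189), and the difference of 0.30 had a 95% interval of -0.14 to 0.74 (edgeR interaction adjusted p = 0.427).

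Ugcg, the glucosylceramide synthase, adds the glucose under which ceramides travel to the lamellar granule. It stood at 64.0, 58.1, 65.5 and 65.4 CPM in no-UVB males and at 118, 98.3, 95.0 and 99.9 CPM after UVB. In females it was 63.7, 58.0, 72.7 and 66.3 CPM without UVB and 77.5, 88.3, 91.3 and 77.0 CPM with it. The irradiated males lay above the irradiated females, and these above the controls, without overlap. Fitted log2 responses of Ugcg were 0.72 ± 0.07 in males (edgeR adjusted p = 1.71e-05) and 0.37 ± 0.09 in females (edgeR adjusted p = 0.0218). The difference of 0.34 (95% interval 0.09 to 0.59) did not pass (edgeR interaction adjusted p = 0.115). It passed with DESeq2's size factors (0.37, edgeR adjusted p = 0.0901), with DESeq2's Wald test (0.37, adjusted p = 0.0506), and without irradiated female replicate 3 (0.40, edgeR adjusted p = 0.0711) or no-UVB female replicate 2 (0.41, edgeR adjusted p = 0.0882).

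Abca12 is the transporter that loads glucosylceramides into the lamellar granule. It stood at 195, 160, 238 and 224 CPM in no-UVB males and at 382, 329, 340 and 321 CPM after UVB. Female levels were 181, 235, 228 and 174 CPM without UVB and 289, 289, 324 and 246 CPM with it. The groups of each sex did not overlap, though the irradiated male and female ranges met between 321 and 324 CPM. For Abca12 the fitted log2 response was 0.77 ± 0.11 in males (edgeR adjusted p = 0.000244) and 0.50 ± 0.12 in females (edgeR adjusted p = 0.0223), and the difference of 0.26 had a 95% interval of -0.12 to 0.63 (edgeR interaction adjusted p = 0.426).

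**Figure D3:**
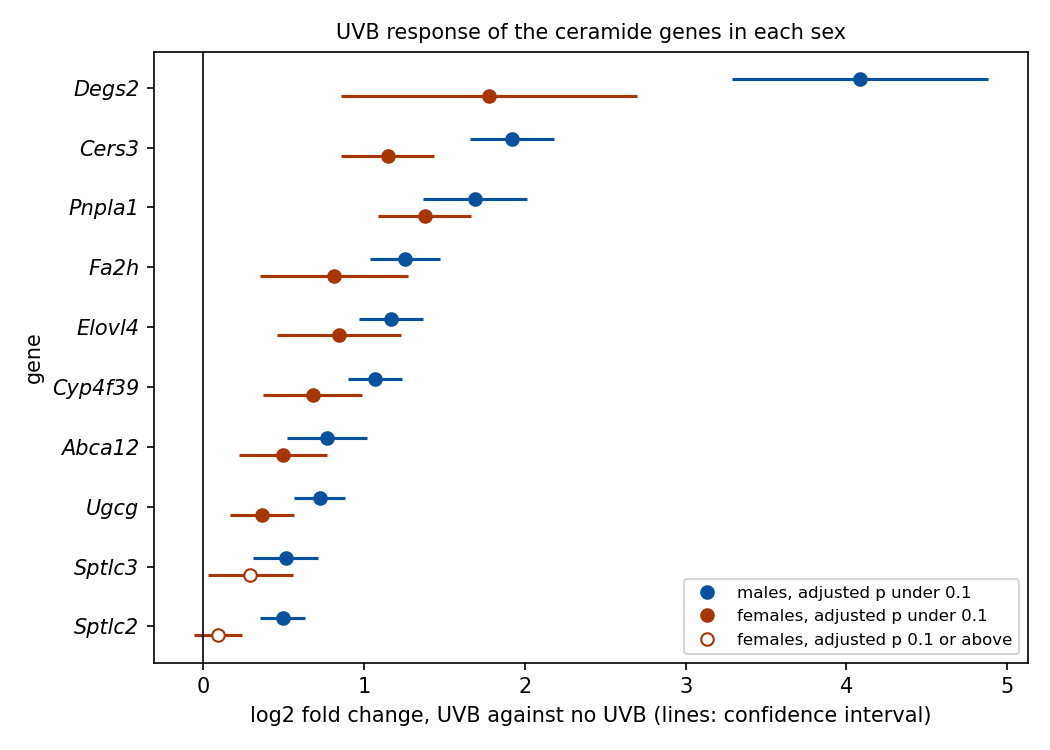
Fitted log2 fold change (horizontal axis, UVB against no UVB) with its 95% confidence interval for each ceramide gene in males and females, filled where the adjusted p was under 0.1. Degs2 is at 4.08 in males and 1.78 in females, and the open points are Sptlc2 at 0.09 and Sptlc3 at 0.29 in females.

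The fitted response was larger in males than in females for all 10 members, and the difference itself passed the test for 3, Cers3, Sptlc2 and Degs2, where 2.75% of all 17406 genes (478) were called with the log2 fold change of males above that of females, which includes genes that fell less in males. That number of genes moved with single mice, while 2 to 4 members passed. It was 163, 242, 239, 173 and 741 without irradiated male replicates 1 and 2 and no-UVB male replicates 1, 2 and 3, and 196, 302, 835, 235 and 747 without irradiated female replicates 1, 2 and 3 and no-UVB female replicates 3 and 4. DESeq2's Wald test gave 1102. Without no-UVB male replicates 3 and 4 together the same 3 members passed, with values of 0.89, 0.44 and 2.84 for Cers3, Sptlc2 and Degs2, and 832 genes were called. At an unadjusted p under 0.05 the log2 fold change of males was above that of females for 5 of 10 members and for 9.11% of all genes, and below it for no member. The members' median difference was 0.36 on the log2 scale, against -0.02 over all genes. In the same test the 7 suprabasal markers had a median of 0.29 with none called, and of 6 basal markers Krt14, a keratin of the basal layer, was higher. Lower in males were 5 of 6 skeletal muscle markers (median -0.80) and 3 of 6 fibroblast markers (median -0.69), as were 4.25% of all genes, and none of 8 adipocyte markers was called (median -0.64). Soat1 among the 8 sebaceous markers and S100a9 among the 5 immune markers tested were higher. The part of these markers in the members' differences between the sexes was not tested. The share of calls that were higher in males among all genes called by the interaction test was 39.2%, but 51.7% with DESeq2's size factors and 32% with upper quartile scaling. Under those scalings 4 and 3 members passed, and 687 and 401 of 17406 genes were higher. Without UVB no member differed between the sexes at the adjusted p (edgeR), where 7.21% of all genes (1255) were higher and 4.58% (797) lower in males, and the median difference of the members was 0.01. Degs2 alone had an unadjusted p under 0.05 there, at -1.07 (95% interval -2.08 to -0.05, edgeR adjusted p = 0.200), that is, lower in males, and it passed at -1.50 without no-UVB male replicate 3 (edgeR adjusted p = 0.098), but had -1.61 (edgeR adjusted p = 0.166) without replicates 3 and 4 of that group. The genes higher in males numbered 762 without no-UVB male replicate 2 and 810 without no-UVB female replicate 2, and those lower numbered 522 and 430 without no-UVB male replicates 1 and 2. By DESeq2's Wald test no member passed. Among the markers without UVB, 4 of 6 fibroblast (median 1.28) and 4 of 6 skeletal muscle genes (median 0.555) were higher in males. Soat1 and 2 of 5 immune genes tested were lower, and no keratinocyte, adipocyte or hair marker was called. The part of these baseline differences in the interaction values was not tested.

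After UVB, 8 of 10 members were higher in males than in females, against 12.8% of all genes (2222, and 1322 without irradiated female replicate 1). The largest differences were those of Degs2 at 1.23 (95% interval 0.44 to 2.02, edgeR adjusted p = 0.0350), Cers3 at 0.88 (0.60 to 1.15, edgeR adjusted p = 0.000628), Cyp4f39 at 0.58 (0.33 to 0.83, edgeR adjusted p = 0.00488) and Pnpla1 at 0.53 (0.23 to 0.83, edgeR adjusted p = 0.0197). Abca12 at 0.26 (-0.01 to 0.52) and Elovl4 at 0.25 (-0.05 to 0.55) did not pass. In the same comparison 4 of 7 suprabasal markers were higher and 1, Flg2, lower in males, and 4 of 6 basal markers were higher. Of the other marker lists, 6 of 8 adipocyte and 2 of 6 skeletal muscle genes were lower, 3 of 6 fibroblast genes were higher, 1 of 8 sebaceous genes was higher and 1 lower, and of 5 immune genes tested S100a9 was higher and 2 were lower, where 12.5% of all genes were lower in males. The part of these markers in the members' differences was not tested. Irradiated males lay above irradiated females without overlap for Cers3, Cyp4f39, Pnpla1, Ugcg, Sptlc2 and Degs2, as for 11.5% of all genes. Without no-UVB male replicates 3 and 4, 7 members were higher in males, as were 2234 of 18088 genes. Fa2h had 0.44 there with an edgeR adjusted p of 0.119. The calls of Sptlc3 (0.30, edgeR adjusted p = 0.0824) and Fa2h (0.44, edgeR adjusted p = 0.0930) were the least firm. Sptlc3 passed in 10 and Fa2h in 5 of the 16 fits that left out 1 mouse, and neither passed with upper quartile scaling (edgeR adjusted p = 0.123 and 0.121) or with all genes of 1 count or more in the test (0.142 and 0.242). Degs2 also failed under that last filter (edgeR adjusted p = 0.106), and 5 members passed there. Upper quartile scaling lowered the share of higher calls among all genes in this comparison from 50.6% to 37.7%, that among UVB calls in females from 54.7% to 44.6% and that in males from 48.7% to 38.8%. DESeq2's size factors raised the share in this comparison to 57.2%, and DESeq2's Wald test gave 57.5%.

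Of the other genes of the ceramide pathway, 47 in 7 lists, 46 were tested. In males 32 rose and 9 fell, with a median log2 fold change of 0.57, and in females 26 rose and 2 fell, with a median of 0.37. Over all genes tested, 30.5% fell in males and 10.6% fell in females. In the lists for acyl chain elongation and acylceramide no gene fell, whereas the lists for other ceramide synthases, head groups, release and breakdown held genes that rose and genes that fell in males. The interaction test called 3 of these genes, all larger in males, where 2.75% of all genes were called higher and 4.25% lower. They were Sptlc1 (0.59, edgeR adjusted p = 0.00739), Cers4 (0.66, edgeR adjusted p = 0.0791) and Sdr9c7 (0.68, edgeR adjusted p = 0.0392). After UVB 15 of the 46 were higher and 6 lower in males than in females, against 12.8% and 12.5% of all genes. Without UVB none was higher and 2 were lower, against 7.21% and 4.58%.

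In sphingoid base synthesis 6 of 7 tested genes rose in males and 5 in females, and none fell. Degs1, the desaturase that makes ordinary ceramide, rose by 1.23 (males) and 0.92 (females) on the log2 scale. Sptlc1, the partner of Sptlc2 and Sptlc3, rose by 1.01 in males and 0.41 in females. Kdsr, which reduces the first product of the pathway, rose by 0.69 and 0.31.

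In fatty acid elongation all 8 genes rose in males and 6 of 8 in females. Elovl3, an elongase of sebaceous glands and hair follicles, rose by 2.32 (males) and 1.81 (females) on the log2 scale. Elovl6, which lengthens palmitate, rose by 1.60 in males and had 0.63 in females, where it did not pass (edgeR adjusted p = 0.158). Elovl7 rose by 0.92 and 0.68. In the acylceramide and corneocyte lipid envelope list 9 of 10 genes rose in each sex. Sdr9c7, a dehydrogenase that acts on the oxidised linoleate of acylceramide, rose by 1.71 in males and 1.02 in females. Ephx3, an epoxide hydrolase, rose by 1.61 and 1.11, and Alox12b, the lipoxygenase that oxidises the linoleate, rose by 1.57 and 1.30. The exception was Acsl1, an acyl-CoA synthetase named here after its values were seen, at -0.14 and 0.07 (edgeR adjusted p = 0.230 and 0.794).

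Among the 5 other ceramide synthases, 1 rose and 2 fell in males, and 1 rose and 1 fell in females. Cers4 rose by 1.37 (males) and 0.69 (females) on the log2 scale. Cers6, which prefers shorter acyl chains, had -1.09 and -0.76 and fell in both sexes. Cers1 fell in males, at -0.74, and had 0.30 in females (edgeR adjusted p = 0.459). In transport and head groups 1 of 5 rose and 3 fell in males, and 1 rose and 1 fell in females. Gltp, a glycolipid transfer protein, rose by 0.74 and 0.61. Sgms2, a sphingomyelin synthase, fell in both sexes, at -0.46 in males and -0.40 in females, and B4galt6, which extends glucosylceramide to lactosylceramide, fell in males at -0.46 and had -0.45 in females (edgeR adjusted p = 0.208).

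For extracellular release, Smpd1, the acid sphingomyelinase, rose by 1.03 (males) and 0.87 (females) on the log2 scale. Psap, the precursor of the saposins, fell in males at -0.18 and had -0.19 in females (edgeR adjusted p = 0.338). In ceramide breakdown 5 of 8 rose and 3 fell in males, against 29.0% and 30.5% of all genes, and 2 rose and none fell in females. Asah2, the neutral ceramidase, rose by 0.83 and 0.65, and Sgpl1, the lyase that ends the pathway, rose by 0.47 and 0.36. Acer2, an alkaline ceramidase, fell in males at -0.36 and had -0.21 in females (edgeR adjusted p = 0.469).

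**Figure D4:**
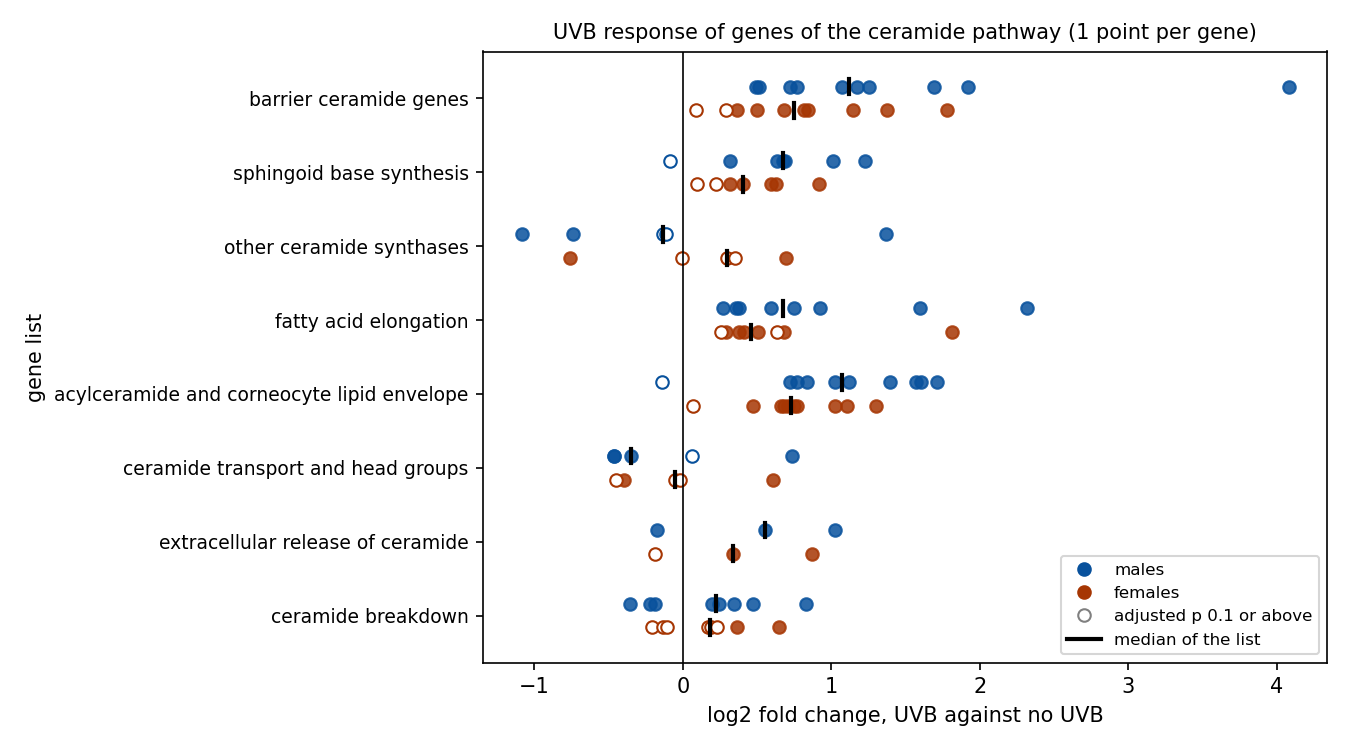
Fitted log2 fold change (horizontal axis, UVB against no UVB) of the 10 barrier ceramide genes and of 46 other ceramide pathway genes by list, 1 point per gene and sex, open where the adjusted p was 0.1 or above, with the median of a list as a black bar. The elongation and acylceramide lists lie to the right of 0 in both sexes but for Acsl1 in males, and the ceramide synthases and head group genes spread to both sides.

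Markers of keratinocytes and of other cells of the skin were measured beside the members. The summed level of 7 suprabasal keratinocyte markers ran from 8561 to 12328 CPM in no-UVB males and from 20315 to 27035 CPM in irradiated males, and from 8011 to 11728 CPM and from 12576 to 16626 CPM in females. Of these 7 markers 6 rose in males and 4 in females, with Krt1, a keratin of the spinous layer, at log2 fold changes of 3.13 and 1.99, Dsc1, a desmosomal cadherin, at 1.65 and 1.06, and Krt10, the partner of Krt1, at 1.24 and 0.62. Flg2, a filaggrin-like protein of the granular layer, had -0.15 and -0.05 and did not pass in either sex (edgeR adjusted p = 0.287 and 0.850). The 6 basal keratinocyte markers summed to 4754 to 7503 CPM in no-UVB males, 7970 to 11352 CPM in irradiated males, 4066 to 5996 CPM in no-UVB females and 4197 to 6397 CPM in irradiated females, and 3 rose in males (Krt14, Itgb4 and Itga6) and 1 in females (Krt14). None of these 13 keratinocyte markers was at 0 in any mouse.

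The 8 sebaceous gland markers summed to 4023 to 5930 CPM in no-UVB males and 5777 to 8676 CPM in irradiated males, and to 4664 to 8793 CPM and 6582 to 7818 CPM in females. In each sex 5 of the 8 rose, among them Soat1 and 2 that are also on the pathway lists, Elovl3 and Far2. Of the dermal markers, 6 fibroblast genes summed to 79065 to 86268 CPM in no-UVB males and 28385 to 39292 CPM in irradiated males, and to 19205 to 20539 CPM and 12113 to 21853 CPM in females, with 5 of 6 lower in males, most of all the collagens Col1a1, Col1a2 and Col3a1, and 1 higher and 1 lower in females. The 6 skeletal muscle markers summed to 14947 to 19821 CPM and 8850 to 11367 CPM in males, where all 6 fell, with Actn3, Myh4 and Ckm at the largest changes, and to 9603 to 14171 CPM and 10660 to 13906 CPM in females, where none was called. The 8 adipocyte markers summed to 2799 to 4078 CPM and 2308 to 3102 CPM in males, with 4 lower, foremost Plin1, Cfd and Cidec, and to 2887 to 4526 CPM and 2677 to 5823 CPM in females, with none called. The 6 immune markers summed to 354 to 553 CPM over all mice, with 1 of 5 tested higher and 3 lower in males, among them Cd3e and Csf1r, and 1 higher and 2 lower in females. The one that rose was S100a9, which both neutrophils and stressed keratinocytes make. It rose 23.5-fold in males (edgeR adjusted p = 0.000385) and 4.90-fold in females (edgeR adjusted p = 0.000330). Ly6g, a surface marker of neutrophils, was at no more than 0.0396 CPM in any mouse and too low to be tested. Its level therefore does not tell whether neutrophils were present. The paper reports Ly6G-positive neutrophils in irradiated skin by flow cytometry and staining. The cell source of the S100a9 reads was not tested. The 8 anagen hair markers summed to 12.3 to 28.9 CPM over all mice, and their 6 hair keratins were not tested. Dlx3 alone had 10.4 to 25.8 CPM, so the sum mostly follows Dlx3 and not the keratins. Each keratin had its highest level in a no-UVB male, from 0.823 CPM for Krt86 to 3.61 CPM for Krt85, and none exceeded 0.346 CPM in the other 3 groups, while Dlx3 and Msx2 rose in both sexes. The part that shifts in keratinocyte, sebaceous and dermal RNA have in the members' values was not tested.

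About the means of the 4 groups, most pairs of members were positively correlated from mouse to mouse. Over the 45 pairs of members and 16 mice, Pearson's r of the log2 CPM residuals had a median of 0.39, was positive for 36 pairs and ranged from -0.34 (Sptlc2 and Fa2h) to 0.90 (Abca12 and Pnpla1). Cers3 had r = 0.73 with Abca12 and 0.75 with Pnpla1. Elovl4 had r = 0.86 with Fa2h and 0.78 with Cyp4f39, and Cyp4f39 had 0.83 with Fa2h. Cers3 had only 0.11 with Elovl4, and -0.18 with Fa2h. With the summed suprabasal markers, r was 0.90 for Abca12, 0.84 for Pnpla1 and 0.73 for Cers3, 0.60 for Sptlc3, 0.49 for Degs2, 0.41 for Ugcg, 0.32 for Elovl4, 0.26 for Fa2h, 0.18 for Cyp4f39 and -0.03 for Sptlc2. With the summed basal markers it was 0.76 for Pnpla1, 0.63 for Sptlc3, 0.58 for Abca12, 0.48 for Degs2, 0.46 for Cyp4f39, 0.45 for Cers3, 0.42 for both Elovl4 and Fa2h, 0.04 for Ugcg and -0.37 for Sptlc2. With the summed sebaceous markers it ran from -0.65 (Degs2) to 0.36 (Sptlc2). These values share libraries and depth, and they are a description only. Pairs of other genes were not measured for comparison, so the correlation is not shown to be particular to the members.

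For each member, the protein-coding gene outside the set whose log2 CPM had the highest Pearson's r with it over the 16 mice was found, group differences included. These were Lypd5 for Pnpla1 (0.993), Mpzl3 for Cers3 (0.991), Rnf225 for Abca12 (0.986), Sdr42e1 for Elovl4 (0.983), Dnase1l2 for Degs2 (0.979), Tlcd4 for Cyp4f39 (0.978), Eif1ax for Ugcg (0.977), Ermp1 for Fa2h (0.976), Sdr16c6 for Sptlc3 (0.960) and Zfp410 for Sptlc2 (0.949). The members thus had 10 different nearest genes. Across the series, 16495776 to 33404831 reads per mouse were counted on genes (median 21767339), which was 70.08% to 79.22% of the reads counted in a library, and the members' counts ran from 30 for Degs2 to 73220 for Elovl4.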

How the data were processed

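Whole-skin poly(A) RNA was sequenced from directional libraries, and per the labels' processing notes reads were aligned with STAR to GRCm39. The deposited files hold the authors' raw counts per gene, 1 file per mouse, with no normalization, and the column of the directional strand was used. The version of STAR and the annotation are not given in the sources used here. Multimapping reads are listed at 0. The rows for unmapped reads (10.12% to 16.36%), reads over no gene (8.301% to 13.69%) and ambiguous reads (1.171% to 1.343%) were left out. Of 55359 gene IDs, 54749 matched GENCODE M39. The members, lists and tests were chosen with earlier results of these data known. In edgeR 4.0.16 (R 4.3.3), filterByExpr, TMM and the robust quasi-likelihood test were applied, with 1 fit per sex (8 mice) for the UVB response and 1 fit over 16 mice for the interaction and the sexes. Rules were an adjusted p under 0.1 and, counted again, a log2 fold change past 1. The biological coefficient of variation was 0.107 in males, 0.139 in females and 0.126 over all mice. Intervals cover the 95% level of the fit. CPM per kb is the TMM CPM divided by the union of GENCODE exons. Correlations used log2 CPM with a prior count of 2. Replicates are separate mice, and in counts those of a group differed by more than sampling noise (chi-square per degree of freedom 10.4 to 109). The scripts were tested on simulated data. Alternatives were the other strand setting, DESeq2 1.42.0, scalings, filters, a replicate block, pooled fits, a threshold of 0.05 and leaving out each mouse, and, chosen after seeing the data, leaving out no-UVB male replicates 3 and 4 together. Named genes were all members, up to 3 called genes with the largest change in males per pathway or marker list, and the most correlated gene of each member. Acsl1, Flg2, Ly6g, Krt85 and Krt86 fall outside this rule and were named after their values were seen. Of the pathway genes that this rule names, 1 is not reported here.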

Additional observations from a re-analysis of the deposited data

Results flagged for a closer look

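In 4 of the 40 groups of 4 mice examined, 1 mouse stood apart by Dixon's criterion (at its 95% critical value), where chance flags about 1 in 20. For Elovl4 this was no-UVB female replicate 4 at 699 CPM, below a highest value of 1097 CPM, and the same mouse had the lowest Cers3 of its group at 25.5 CPM. For Cers3 and Sptlc3 it was no-UVB male replicate 2, at 24.2 and 44.6 CPM, against group highs of 35.5 and 58.2 CPM. The UVB calls of these genes were the same without those mice.

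The response to UVB differed between the sexes by the interaction test for Cers3 (0.76 larger in males on the log2 scale), Sptlc2 (0.39) and Degs2 (2.30). For Sptlc2 the irradiated females overlapped their controls, and for Degs2 the no-UVB females spread from 2.02 to 9.18 CPM.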

How the results depend on the processing

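All 10 members rose in males under every alternative and every fit without 1 mouse. Over all genes, 3880 of 16535 rose in males with upper quartile scaling and 5013 of 31693 with all genes of 1 count or more. In females 6 to 9 members rose under the alternatives. The 6 came with all genes of 1 count or more in the test, where 1816 of 32425 genes rose. The 9 came in 1 fit over all mice, where 2649 of 17406 genes rose. For irradiated males against irradiated females 5 members passed with all genes of 1 count or more in the test, against 8. Of all genes, 1434 of 34670 were higher in males there, against 2222 of 17406. Without UVB, the count of members lower in males ranged from 0 to 1 over the fits that left out 1 mouse. The sign of differences near 0 between unirradiated sexes turned: Abca12 to 0.00128 with the replicate block and -0.0889 to 0.102 without 1 mouse, Fa2h to -0.00732 with upper quartile scaling and -0.131 to 0.127, Ugcg -0.113 to 0.00141, Sptlc2 -0.0737 to 0.000184, and Sptlc3 -0.0238 to 0.175, and, with no-UVB male replicates 3 and 4 left out, Cers3 to -0.0116 and Sptlc3 to -0.0122; none of these passed the test. The replicate numbers did not pair the mice (r of same-numbered deviations -0.07 to 0.02 in males and -0.12 to 0.22 in females, with 0 and 2 of 4 mice closest to their own number). The replicate block left 10, 8 and 3 members called for males, females and the interaction, and 7 for the irradiated sexes, where Fa2h was lost (edgeR adjusted p = 0.105). Over all genes the calls that were higher with the block numbered 4680 of 16535, 1966 of 16883, 562 of 17406 and 2265 of 17406, in the same order. Over all genes the interaction called 1218, against 2040 with DESeq2's Wald test (1102 higher and 938 lower) and 724 (229 and 495) with the filter of at least 1 count. Among the members Degs2 had the lowest counts, from 30 reads. Whether lane or processing day differed between groups was not given in the sources used here.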
